A study of Mus musculus with 4 samples.

Results

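Malat1, Neat1 and the snoRNA host genes Gas5, Snhg1, Snhg6, Snhg8 and Snhg12 are 7 long noncoding RNA genes that were followed here across the lineages of the mouse embryo in diapause, after reactivation and after implantation. They were chosen by measured values, since their levels in these same libraries were known when the list was drawn up, so every level and ratio below is a description and none is a test. Of the 7 genes, 6 are rows in the deposited counts, out of 25437 gene names in all. Snhg8 matched no row under its symbol or its older names and is not analysed here.

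The libraries came from whole wild-type B6C3F1/J mouse embryos, dissociated with TrypLE and captured as single cells on the BD Rhapsody Express system, with 1 library per stage. EDG7.5 and EDG9.5 are labels of blastocysts in embryonic diapause, the arrest that delays implantation. The Reactivated library carries the label EDG9.5 with 30 h of E2. Each of these 3 pools held 200 to 250 flushed blastocysts, while 50 E5.5 embryos were taken out of their implantation sites with forceps. With 1 library per stage, stage, pool and library cannot be told apart and no difference was checked in replicates. All intervals are 95% intervals that cover counting error only.

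Long noncoding RNAs of this group have different places in the cell. Malat1 is an abundant RNA of nuclear speckles, the compartments rich in splicing factors. Neat1 is the scaffold of paraspeckles, nuclear bodies built on its long isoform by RNA-binding proteins such as NONO and SFPQ, and it is made from a gene next to Malat1. The other members are host genes: small nucleolar RNAs (snoRNAs), which guide chemical modification of ribosomal RNA, are cut from their introns. Their spliced exons often start with a 5′ terminal oligopyrimidine (TOP) tract, the feature that ties the translation of ribosomal protein mRNAs to growth signals, and many are degraded by nonsense-mediated decay when they are translated. The share of all molecules that come from ribosomal protein genes was therefore set beside the host genes.

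The places of the members are given on mm10 (GRCm38), from RefSeq. Malat1 lies at chr19:5795690-5802672 and Neat1 at chr19:5824708-5845480, both on the minus strand, with 22036 bases between them in GENCODE. Snhg1 is also on chromosome 19, at chr19:8723487-8726326 on the plus strand. Gas5 lies at chr1:161034601-161038539 on the plus strand and Snhg6 at chr1:9942025-9944118 on the minus strand. Snhg8 lies at chr3:123507552-123508336 on the minus strand and Snhg12 at chr4:132308678-132311024 on the plus strand. All 7 are annotated as lncRNA. GENCODE lists 10 snoRNA entries inside Gas5, 8 inside Snhg1, 5 inside Snhg12 and 1 each inside Snhg6 (Snord87) and Snhg8 (Snora24), and none inside Malat1 or Neat1.

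The 3′ end of Malat1 is shown because the libraries read polyadenylated RNA, while the mature Malat1 is known to end in an encoded A-rich tract rather than in an added tail. The capitals mark its run of 12 A, at base 6674 of the 6983-base transcript and the only run of at least 10 A in it. It lies on the minus strand of GRCm38. The tRNA-like RNA that is cut off from the transcript begins a few bases after this run. The longest transcript of Neat1 holds no run of at least 10 A.
Malat1 3′ end, chr19:5795918-5796061: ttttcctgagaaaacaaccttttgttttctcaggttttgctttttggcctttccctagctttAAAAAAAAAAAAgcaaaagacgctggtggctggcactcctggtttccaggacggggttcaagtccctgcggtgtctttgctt

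The start sites of the host genes are shown because a TOP tract, if present, sits there. RefSeq windows (GRCm38.p6) were found for Malat1, Gas5, Snhg1, Snhg8 and Snhg12, and each line gives 80 bases in the direction of transcription, 40 of them before the annotated start. Capitals mark a TOP-like tract, a C followed by at least 4 bases that are C or T in the sequence as printed, beginning within 10 bases of the start.
Gas5, second start, plus strand, chr1:161035126-161035205: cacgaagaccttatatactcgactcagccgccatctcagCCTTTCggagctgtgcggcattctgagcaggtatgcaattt
Snhg8, minus strand, chr3:123508297-123508376: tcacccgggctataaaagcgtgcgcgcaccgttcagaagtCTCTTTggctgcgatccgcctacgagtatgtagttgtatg
Snhg12, plus strand, chr4:132308638-132308717: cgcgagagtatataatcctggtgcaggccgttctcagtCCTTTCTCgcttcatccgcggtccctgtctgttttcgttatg
Snhg1, plus strand, chr19:8723447-8723526: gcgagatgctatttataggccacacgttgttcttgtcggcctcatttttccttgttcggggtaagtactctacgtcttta
Malat1, minus strand, chr19:5802633-5802712: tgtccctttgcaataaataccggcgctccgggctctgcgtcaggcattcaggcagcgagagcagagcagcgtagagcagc

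By this search Gas5 (at the second of its 2 annotated starts), Snhg8 and Snhg12 hold a tract, and the windows of Malat1 and Snhg1 and the first Gas5 window do not. The search is loose: 30.7% of all 32851 windows pass it, against 55.3% of the 76 windows of ribosomal protein genes. The E-box CACGTG, which reads the same on both strands, is in none of the members' windows and in 7.15% of all windows. A match is a description of these letters only.

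The files held 677 barcodes in Reactivated to 9560 in E5.5, and 9270833 molecule counts (UMIs) in Reactivated to 87507141 in E5.5. Between 1 and 27 barcodes were shared by any 2 libraries, at most 1.33% of the smaller. Cells of each library fell into epiblast, endoderm and trophoblast, named from marker genes, with 163 cells (Reactivated trophoblast) to 3186 cells (E5.5 trophoblast) in a lineage. CPM are UMIs of a gene scaled to the same total in every sum, so they are shares and not amounts per cell. The 8 epiblast markers summed to 2316 to 7066 CPM in epiblast and to at most 648 CPM in the other lineages. The 13 endoderm markers summed to at least 12638 CPM in endoderm and at most 617 CPM elsewhere, and the 14 trophoblast markers to at least 4967 CPM in trophoblast and at most 659 CPM elsewhere. Of the marker lists of other cell types, uterine epithelium reached at most 513 CPM in a named lineage, Reactivated trophoblast, against 340.4, 295 and 347 CPM in trophoblast of EDG7.5, EDG9.5 and E5.5. In Reactivated trophoblast 5 of the 6 genes of this list with rows were detected, with Wnt7a at 0 and with Lcn2, which was at 0 in the other lineage sums. Decidual stroma reached at most 71.0 CPM, in Reactivated endoderm, with 331 UMIs from 6 of its 9 genes and Hand2, Pgr and Prl8a2 at 0. Among the 10 leading genes of a cluster, 3 named clusters held 1 marker of another list and none of their own. These were a trophoblast cluster of 419 cells in EDG9.5 and one of 41 cells in Reactivated, both with Msx1 of the uterine epithelium list, and an epiblast cluster of 80 cells in EDG7.5 with Dcn of the decidual list. An E5.5 cluster of 447 cells led by the giant-cell lactogen genes Prl3d1 and Prl3d2 was left unnamed, as its endothelium markers scored almost as high as its trophoblast markers. Cells were deeper after diapause: the median was 4080.5, 3514 and 3833.5 UMIs per cell in epiblast, endoderm and trophoblast of EDG9.5, and 12530, 14262 and 11413 in Reactivated.

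Malat1 was the most abundant member in the diapause libraries, and its share of molecules was far lower after reactivation and at E5.5 in all 3 lineages. Epiblast of EDG7.5 had 1275 CPM (1234 to 1317), of EDG9.5 2846 CPM (2780 to 2912), of Reactivated 409 CPM (384 to 434) and of E5.5 385 CPM (377 to 393). In endoderm the levels were 1335 (1296 to 1375), 1999.6 (1955 to 2045), 161 (149 to 172) and 218 (212 to 223) CPM in the same order. In trophoblast they were 2491 (2438 to 2546), 2529 (2482 to 2576), 275 (252 to 299) and 225 (219.9 to 231) CPM. In each lineage both diapause libraries were above both later libraries, with no overlap of intervals. Within diapause the lineages differed: on CPM trophoblast was alike in EDG7.5 and EDG9.5, with a ratio of 1.01 (0.986 to 1.04), whereas epiblast was 2.23-fold (2.14 to 2.32) and endoderm 1.5-fold (1.44 to 1.56) higher in EDG9.5. Per ribosomal protein UMI the ratios of EDG9.5 to EDG7.5 were 0.685 in trophoblast, 1.91 in epiblast and 1.10 in endoderm.

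From EDG9.5 to Reactivated, Malat1 was 6.96-fold (6.53 to 7.44) lower in epiblast, 12.5-fold (11.6 to 13.4) lower in endoderm and 9.20-fold (8.45 to 10.1) lower in trophoblast. Among log2 ratios of CPM + 10, in endoderm this was the 9th lowest of 12721 genes measured, and in trophoblast the 54th lowest of 11520. The order of the lineages was the same in EDG9.5 and Reactivated, with epiblast highest, then trophoblast, then endoderm. Trophoblast was the highest lineage in EDG7.5, and epiblast was the highest in the other 3 libraries. E5.5 endoderm and trophoblast were next to each other, at 218 and 225 CPM, with intervals that overlap.

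**Figure D1:**
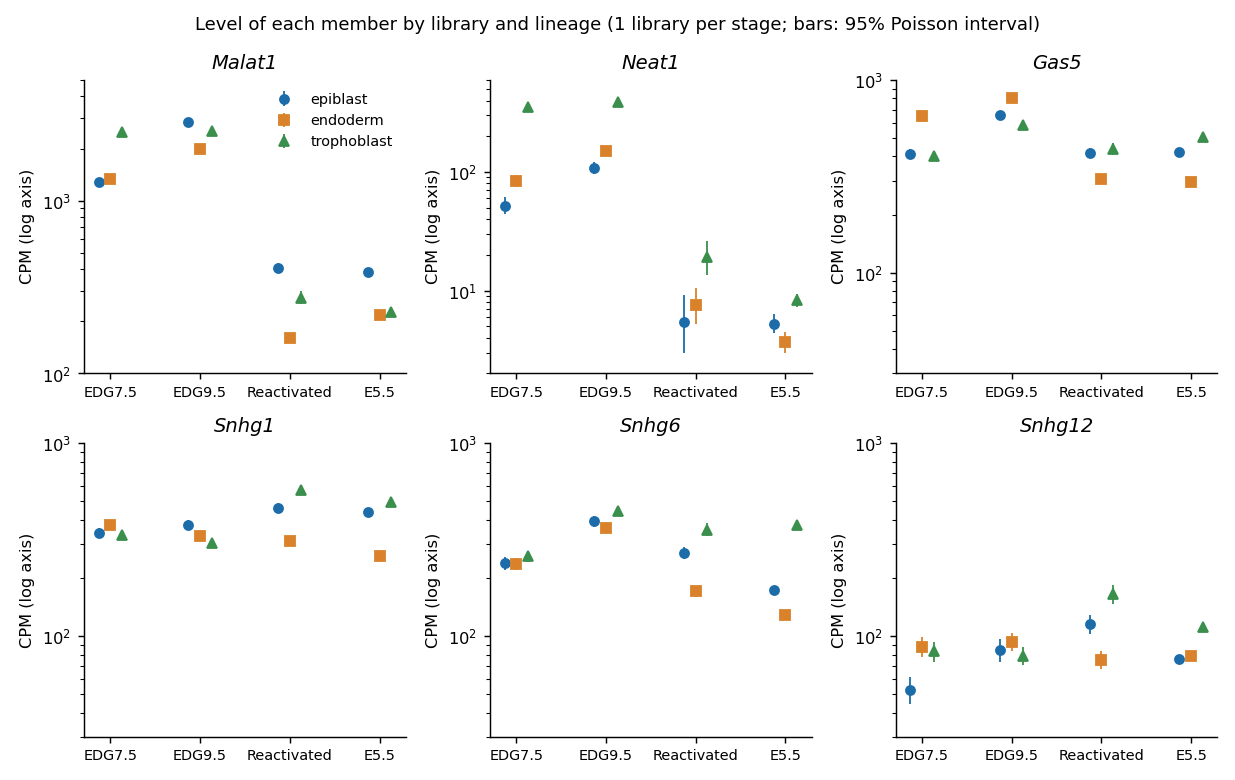
Level of each member in CPM (log axis) in the 4 libraries, for epiblast (circles), endoderm (squares) and trophoblast (triangles), with 95% Poisson intervals as bars. Malat1 stands between 1275 and 2846 CPM in the 6 diapause sums and between 161 and 409 CPM in the 6 later sums, while Gas5, Snhg1, Snhg6 and Snhg12 show no such gap.

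Because cells of the Reactivated library gave more UMIs each, the share was also set against the count per cell. Malat1 gave 12.3, 8.23 and 12 UMIs per cell in EDG9.5 epiblast, endoderm and trophoblast, and 5.11, 2.47 and 3.36 in Reactivated. The count per cell was therefore lower too, although the total per cell was higher. Per 1000 ribosomal protein UMIs of the same cells, Malat1 stood at 27.7, 15.7 and 17.2 in EDG9.5 and at 3.38, 1.55 and 1.94 in Reactivated. All 3 scales gave the same direction in all 3 lineages. Without the clusters that held a marker of another list, the trophoblast log2 ratio of CPM + 10 from EDG9.5 to Reactivated was -3.36 in place of -3.16 for Malat1 and -4.05 in place of -3.77 for Neat1. The epiblast value of Malat1 from EDG7.5 to EDG9.5 was 1.11 in place of 1.15. The part of the uterine epithelium genes in the trophoblast values was not tested beyond this.

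Neat1, the paraspeckle scaffold, was a trophoblast-high RNA in every library. Trophoblast of EDG7.5 had 356 CPM (336 to 377), of EDG9.5 386 CPM (368 to 404), of Reactivated 19.1 CPM (13.5 to 26.2) and of E5.5 8.29 CPM (7.27 to 9.42). In endoderm the levels were 83.8 (74.1 to 94.3), 151 (139 to 164), 7.5 (5.23 to 10.4) and 3.65 (2.97 to 4.45) CPM. In epiblast they were 52.1 (44.1 to 61.2), 109 (96.4 to 123), 5.46 (2.99 to 9.17) and 5.26 (4.37 to 6.29) CPM. The drop between the diapause and later libraries was thus wider than that of Malat1, at 19.9-fold (11.7 to 36.9) in epiblast, 20.2-fold (14.3 to 29.2) in endoderm and 20.2-fold (14.7 to 28.7) in trophoblast from EDG9.5 to Reactivated. These 3 ratios rest on 14, 35 and 38 UMIs in Reactivated, which is why their intervals are wide. Within diapause Neat1 followed Malat1: 2.09-fold (1.71 to 2.57) higher in EDG9.5 epiblast, 1.81-fold (1.56 to 2.09) higher in endoderm and 1.08-fold (1.01 to 1.17) higher in trophoblast.

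From Reactivated to E5.5, Neat1 was lower by 2.05-fold (1.36 to 3.05) in endoderm and 2.30-fold (1.59 to 3.25) in trophoblast, while the epiblast ratio was 0.964 (0.553 to 1.81). Set against EDG9.5, E5.5 was 41.4-fold lower in endoderm and 46.5-fold lower in trophoblast. Few E5.5 cells held a Neat1 UMI at all, with a mean of 0.0462, 0.0331 and 0.0738 UMIs per cell in epiblast, endoderm and trophoblast. Counts of the short and the long Neat1 isoform cannot be told apart in these files. Over the 12 lineage and library sums, log2 levels of Malat1 and Neat1 had a Pearson correlation of 0.92, a description of 12 points that share libraries. The same correlation with the mitochondrially encoded share was 0.51 for Malat1 and 0.66 for Neat1.

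The 4 host genes with counts, Gas5, Snhg1, Snhg6 and Snhg12, were spread over a much smaller range and did not move as a block. Their summed level was 1043, 1349 and 1074 CPM in EDG7.5 epiblast, endoderm and trophoblast, and 1509.5, 1590.2 and 1409.7 CPM in EDG9.5. Reactivated had 1263, 864 and 1531 CPM, and E5.5 had 1109, 760.5 and 1479.9 CPM. Trophoblast was therefore near its EDG9.5 sum in both later libraries, while the endoderm ratio of Reactivated to EDG9.5 was 0.543 (0.522 to 0.566). From EDG9.5 to Reactivated the 4 genes split into pairs that differ in direction in epiblast and trophoblast. In endoderm all 4 were lower on CPM, Snhg1 and Snhg12 only slightly.

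On CPM, Gas5, named for its accumulation in growth-arrested cells, and Snhg6 were highest in EDG9.5 in all 3 lineages. Per 1000 ribosomal protein UMIs, Gas5 was highest in EDG9.5 only in epiblast. In endoderm it then stood at 6.90 in EDG7.5 and 6.32 in EDG9.5. In trophoblast it stood at 4.04, 3.95 and 4.09 in EDG7.5, EDG9.5 and E5.5. On that scale Snhg6 in trophoblast stood at 3.05 in EDG9.5 and 3.06 in E5.5. For Gas5, epiblast of EDG7.5 had 412 CPM (388 to 436), of EDG9.5 656 CPM (625 to 689), of Reactivated 415 CPM (391 to 441) and of E5.5 421 CPM (412 to 429). In endoderm it was 647 (619 to 675), 804 (776 to 833), 307 (291 to 323) and 293 (287 to 299.8) CPM, and in trophoblast 400.4 (379 to 423), 579.7 (558 to 602), 438 (409 to 468) and 502 (494 to 510.4) CPM. On CPM, endoderm thus went from the highest lineage in diapause to the lowest after it. The ratio of Reactivated to EDG9.5 was 2.62-fold (2.46 to 2.79) lower in endoderm, 1.58-fold (1.46 to 1.71) lower in epiblast and 1.32-fold (1.23 to 1.43) lower in trophoblast.

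Snhg6, the host of Snord87, showed the same order of libraries in endoderm, at 237 CPM (220.1 to 254), 363 (344 to 383), 170.2 (159 to 182) and 128 (124 to 132) from EDG7.5 to E5.5. In epiblast it stood at 238 (221 to 257), 392 (368 to 418), 269.7 (249.9 to 290.5) and 173 (168 to 179) CPM, and in trophoblast at 258 (241 to 276), 446 (427 to 466), 356 (330.4 to 383) and 375 (368 to 382) CPM. It was higher in EDG9.5 than in EDG7.5 by 1.65-fold (1.49 to 1.82) in epiblast, 1.53-fold (1.40 to 1.68) in endoderm and 1.73-fold (1.59 to 1.87) in trophoblast. From EDG9.5 to Reactivated it was 2.13-fold (1.95 to 2.33) lower in endoderm, 1.45-fold (1.32 to 1.61) lower in epiblast and 1.25-fold (1.15 to 1.37) lower in trophoblast. Of the 4 host genes, Snhg6 was the only one whose E5.5 trophoblast level was over 2 times that of E5.5 epiblast and endoderm alike.

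Snhg1, the host with 8 snoRNA entries, and Snhg12 went the other way in trophoblast. Snhg1 in trophoblast of EDG7.5 stood at 332 CPM (313 to 352), of EDG9.5 at 305 CPM (289 to 321), of Reactivated at 573 CPM (539.9 to 607) and of E5.5 at 492 CPM (484 to 500.4). Snhg12 trophoblast stood at 83.1 (73.6 to 93.6), 78.9 (70.9 to 87.6), 164 (147 to 183) and 111 (107 to 115) CPM. From EDG9.5 to Reactivated these were 1.88-fold (1.74 to 2.03) and 2.08-fold (1.79 to 2.43) higher, so the 4 host genes of 1 lineage split into a pair that was lower and a pair that was higher. In epiblast Snhg1 stood at 341, 377, 463 and 439 CPM and Snhg12 at 52.5, 84.3, 115 and 76.3 CPM from EDG7.5 to E5.5. In endoderm Snhg1 stood at 378, 330.1, 312 and 261 CPM and Snhg12 at 87.4, 93.0, 74.8 and 78.3 CPM. The endoderm ratios of Reactivated to EDG9.5, 0.945 (0.876 to 1.02) for Snhg1 and 0.804 (0.691 to 0.935) for Snhg12, were slightly below 1 on CPM, and their log2 ratios of CPM + 10 were 0.29 and 0.06 when TMM factors replaced library totals.

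Counts per cell gave another order for the host genes. Gas5 gave 2.84, 3.31 and 2.74 UMIs per cell in EDG9.5 epiblast, endoderm and trophoblast and 5.19, 4.73 and 5.34 in Reactivated, so its count per cell was higher where its share was lower. Snhg1 gave 1.63, 1.36 and 1.44 UMIs per cell in EDG9.5 and 5.79, 4.81 and 6.99 in Reactivated. More RNA per cell and better capture per cell cannot be told apart here. Malat1 and Neat1, unlike the hosts, were lower in Reactivated on both scales, with 0.471, 0.622 and 1.83 Neat1 UMIs per cell in EDG9.5 and 0.0683, 0.116 and 0.233 in Reactivated.

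Genes that overlap or adjoin the members were checked, as the strand setting of the counting is not given in the sources used here. Zbtb37, on the opposite strand of Gas5, stayed at or below 10.7 CPM and Mcmdc2, opposite Snhg6, at or below 3.94 CPM in all 12 sums. Slc3a2, the amino acid transporter subunit whose start lies 106 bases from that of Snhg1 on the other strand, stood at 277 CPM in EDG9.5 trophoblast and 899.6 CPM in Reactivated trophoblast. These 3 genes were chosen for their position and after their values were seen. The log2 level of Slc3a2 had a Pearson correlation of 0.36 with Snhg1 over the 12 sums, and in E5.5 trophoblast it stood at 352 CPM while Snhg1 was at 492 CPM. Snora24, the snoRNA gene inside Snhg8, had 16, 21, 11 and 148 UMIs in the 4 libraries from EDG7.5 to E5.5, too few for a ratio by lineage.

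Counted over 6 genes and 3 lineages, 18 pairs of member and lineage could pass a 2-fold limit, set at a log2 ratio of CPM + 10 of 1 in either direction. From EDG7.5 to EDG9.5, 1 pair was at least 2-fold higher, Malat1 in epiblast, where 0.109% of all gene and lineage pairs were, and 0 were lower, where 0.0601% were. Per ribosomal protein UMI 0 pairs passed 2-fold in either direction, as Malat1 in epiblast was then 1.91-fold higher. On CPM + 10, Malat1 had the 3rd and Neat1 the 5th highest log2 ratio of 12409 genes in epiblast. From EDG9.5 to Reactivated, 0 pairs were higher, where 7.49% of all pairs were, and 8 were lower, where 12.8% were: Malat1 and Neat1 in all 3 lineages, and Gas5 and Snhg6 in endoderm. With TMM factors these last pairs had log2 ratios of -0.99 and -0.68 and fell short of 2-fold. From Reactivated to E5.5, 0 of 18 pairs were higher and 0 were lower, where 3.82% and 3.36% of all pairs were. Since the members were chosen with these contrasts known, nothing is read from these shares, and consecutive comparisons share a library.

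**Figure D2:**
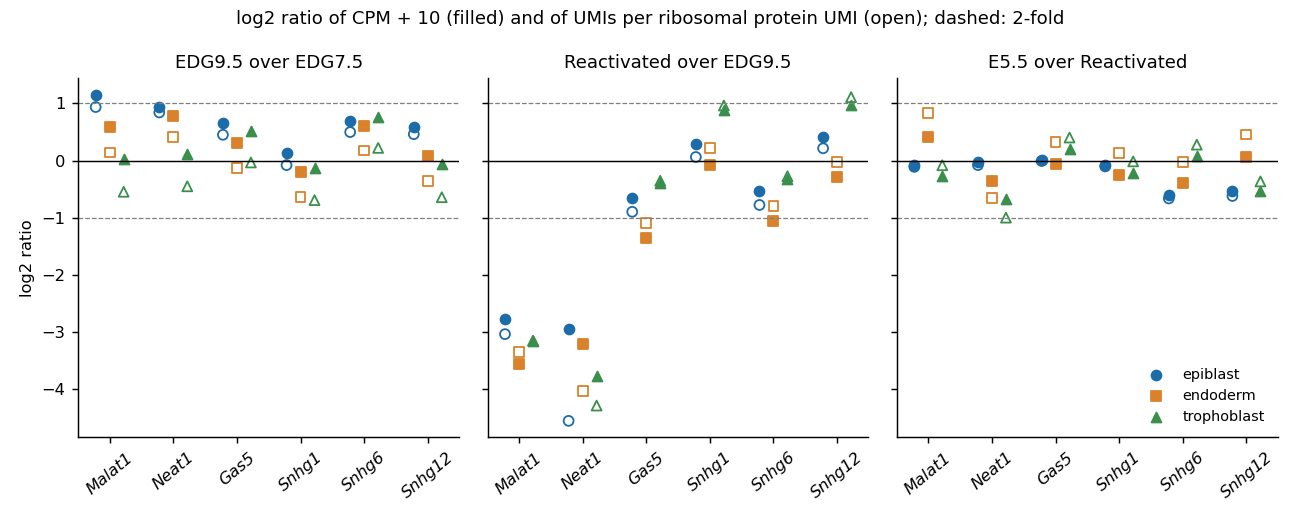
Log2 ratio of each member in the 3 comparisons, for CPM + 10 (filled) and per ribosomal protein UMI (open), with dashed lines at 2-fold. Malat1 and Neat1 lie between -2.77 and -3.77 on the CPM + 10 scale from EDG9.5 to Reactivated, while Snhg12 in trophoblast lies at 0.97 and passes the line per ribosomal protein UMI.

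The ribosomal protein share was 8.80%, 9.38% and 9.90% in EDG7.5 epiblast, endoderm and trophoblast and 10.3%, 12.7% and 14.7% in EDG9.5. Reactivated had 12.1%, 10.4% and 14.1%, and E5.5 had 12.3%, 7.90% and 12.3%. Over the 12 sums its Pearson correlation was 0.69 with the log2 host sum, 0.67 with Snhg6, 0.58 with Snhg12, 0.54 with Snhg1 and 0.40 with Gas5. With Malat1 it was 0.02 and with Neat1 0.13. The members did not fall into clean groups by this measure: Gas5 had a correlation of 0.68 with Malat1 and 0.59 with Neat1, both above its 0.40 with the share, and Snhg6 had 0.52 and 0.56. Snhg1 had -0.30 and -0.35 and Snhg12 -0.32 and -0.21 with Malat1 and Neat1. These are descriptions of 12 sums from 4 libraries, in which depth and library are shared.

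The lineages of a library gave the same picture in places. In both later libraries endoderm had the lowest ribosomal protein share and the lowest host sum, 10.4% with 864 CPM in Reactivated and 7.90% with 760.5 CPM in E5.5. In EDG9.5 it did not: trophoblast had the highest share, 14.7%, and the lowest host sum, 1409.7 CPM. Per 1000 ribosomal protein UMIs, the host sum ran from 8.34 in Reactivated endoderm to 14.7 in EDG9.5 epiblast. From EDG7.5 to EDG9.5 the ribosomal protein share was 1.17-, 1.36- and 1.48-fold higher in epiblast, endoderm and trophoblast and the host sum 1.45-, 1.18- and 1.31-fold higher, so per ribosomal protein UMI the host sum was 1.24-fold in epiblast and 0.868- and 0.886-fold in the other lineages. On the scale per ribosomal protein UMI, 7 of the 18 pairs were at least 2-fold lower from EDG9.5 to Reactivated, without Snhg6 in endoderm, and 1 was higher, Snhg12 in trophoblast at 2.16-fold.

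**Figure D3:**
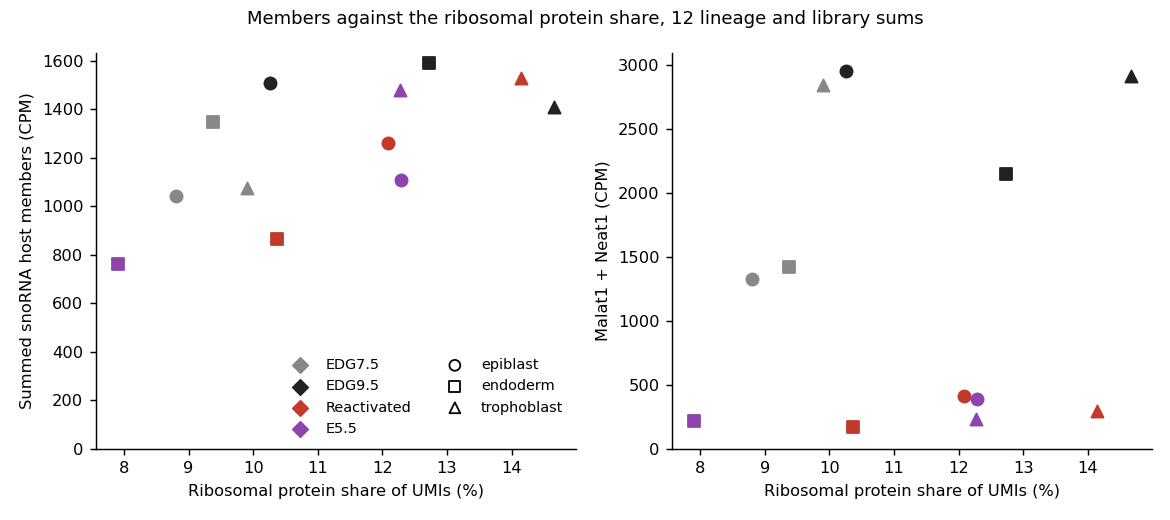
Summed snoRNA host members (left) and Malat1 plus Neat1 (right), both in CPM from 0, against the ribosomal protein share of UMIs in 12 lineage and library sums; colours are libraries and shapes lineages. The host sum runs from 760.5 CPM at a share of 7.90% to 1590.2 CPM at 12.7%, whereas the 6 diapause sums of Malat1 plus Neat1, from 1327 CPM upwards, lie above the 6 later ones at any share.

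Within a library, clusters of cells differed in Malat1. In EDG9.5 it ran from 667 to 3349 CPM over clusters. The highest was a trophoblast cluster of 276 cells led by Gjb2 and Fosb, which also had the highest Neat1 of any cluster, 589.5 CPM. The lowest, 667 CPM, was an endoderm cluster of 56 cells with 0.748% mitochondrially encoded UMIs and a ribosomal protein share of 19.2%. Other low values were found in a trophoblast cluster of 50 cells led by Csta and Krt14, at 677 CPM, and in an endoderm cluster of 118 cells led by Cubn, the endocytic receptor of visceral endoderm, at 948 CPM. Their cells were deep, with medians of 9687 and 5854.5 UMIs against 3817 in the library. The dividing endoderm cluster of EDG7.5, led by Ccna2 and Mki67, stood at 856 CPM against 1435 and 1573 in the other endoderm clusters.

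The Reactivated trophoblast clusters differed among themselves. The cluster led by Adh1, Gjb2, Crip1 and Msx1 (41 cells), which held the uterine epithelium marker and no trophoblast marker among its 10 leading genes, stood at 495 CPM. Its cells had a median of 7306 UMIs, against 13155 in the library, and 9.54% mitochondrially encoded UMIs. The cluster led by BC051665 and Ctsll3 (33 cells) stood at 570 CPM, against 154 CPM in the cluster led by Hand1 and 139 CPM in the cluster led by Crip1 and AA467197. In epiblast, the cluster led by Sox2 and Nanog stood at 551 CPM and that led by Pim2 and Otx2, a gene of the primed epiblast, at 312 CPM. Gjb2 and BC051665 are also among the leading genes of EDG7.5 and EDG9.5 trophoblast clusters. Every Reactivated cluster was below every EDG9.5 cluster, 570 CPM against 667 CPM at the nearest. In EDG7.5 an epiblast cluster of 21 cells had 267 CPM of Malat1 and no Neat1 UMI, with 0.248% mitochondrially encoded UMIs against 5.46 to 6.13% in the other epiblast clusters. Leaving out this and the other clusters under 1% of such UMIs, a choice made after seeing the data, moved 0 of the 6 counts of pairs past 2-fold by over 1.5 times.

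**Figure D4:**
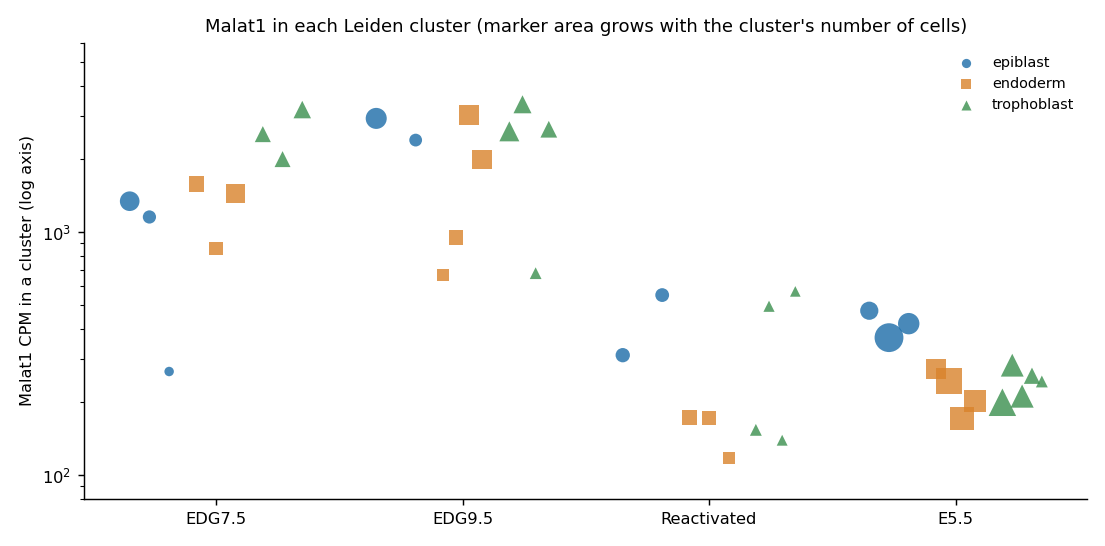
Malat1 in CPM (log axis) in each named cluster of the 4 libraries, with marker area growing with the number of cells. The EDG9.5 clusters run from 667 to 3349 CPM and the Reactivated clusters from 118 to 570 CPM, so these libraries do not overlap, and the clusters named trophoblast in Reactivated stand at 139, 154 and 570 CPM and, for the one whose leading genes hold a uterine epithelium marker and no trophoblast marker, at 495 CPM.

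Malat1 also moved with the depth of a cell. With the cells of a lineage split into 3 equal groups by total UMIs, Malat1 in EDG9.5 trophoblast was 3748 CPM in the shallowest, 3011 in the middle and 1956 in the deepest group, and in EDG7.5 trophoblast 3722, 2637 and 2038. In Reactivated trophoblast it was 675, 255 and 148 CPM, and in E5.5 trophoblast 224, 228 and 224 CPM. In trophoblast the depth trend was thus seen in 3 libraries and not in E5.5. The deepest EDG9.5 cells, at 2397, 1542 and 1956 CPM in epiblast, endoderm and trophoblast, were above the shallowest Reactivated cells, at 666, 209 and 675 CPM. The host sum showed the opposite trend in EDG9.5 trophoblast, from 1221 CPM in the shallowest to 1527 in the deepest cells.

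**Figure D5:**
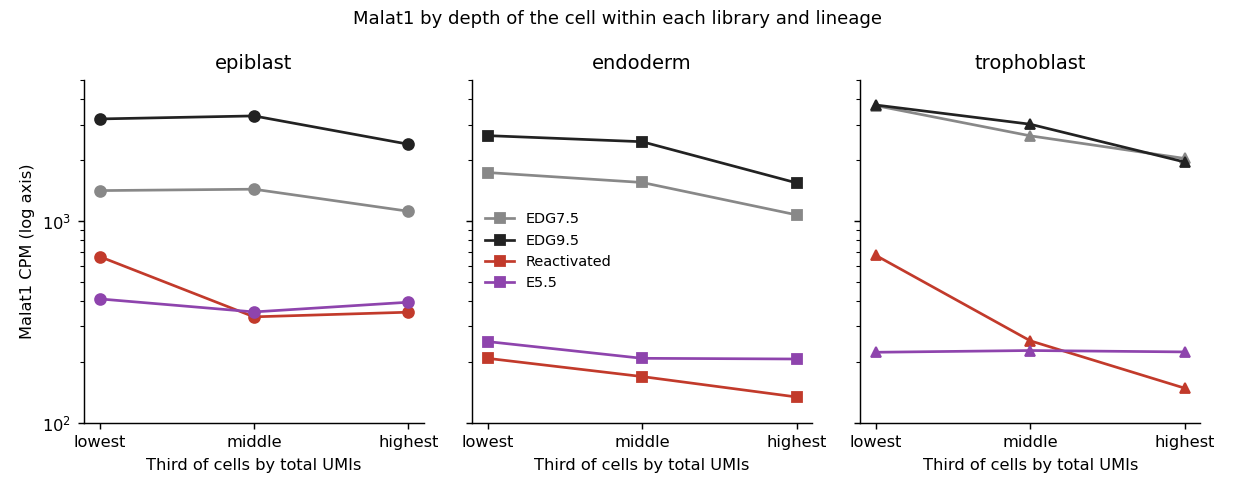
Malat1 in CPM (log axis) in cells of each lineage split into 3 equal groups by total UMIs, with 1 line per library. Lines of EDG9.5 and EDG7.5 end lower in the deepest than in the shallowest cells and stay above those of Reactivated and E5.5 in every group, and the E5.5 trophoblast line is level between 224 and 228 CPM.

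The mitochondrially encoded share, a sign of cell quality, was 4.97 to 10.6% in the diapause sums, 6.08 to 6.56% in those of Reactivated, and 4.17 to 6.70% in the E5.5 sums. In EDG9.5 trophoblast Malat1 was 1849, 2285 and 3209 CPM in cells with under 5%, 5 to 10% and 10 to 25% of such UMIs, and in EDG9.5 epiblast 2767, 2971 and 2843 CPM. EDG9.5 endoderm ran the other way, at 2550 CPM, 1903 CPM and 1845 CPM. In cells of 5 to 10% alone, Malat1 was 2971, 1903 and 2285 CPM in EDG9.5 epiblast, endoderm and trophoblast and 373, 167 and 300 CPM in Reactivated. In epiblast the immune marker list summed to 234, 223, 57.4 and 3.41 CPM and the endothelium list to 229, 207, 53.1 and 8.93 CPM from EDG7.5 to E5.5, with 3, 3, 5 and 6 of the 8 immune and 3, 3, 4 and 5 of the 5 endothelium genes detected. Ptprc and Cdh5 were at 0 in epiblast of the first 3 libraries. The part of these genes in the epiblast values was not tested.

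After thinning every cell to 1000 UMIs, Malat1 was seen in 88.0%, 75.3% and 84.2% of EDG9.5 epiblast, endoderm and trophoblast cells and in 33.7%, 14.5% and 20.9% of Reactivated cells. Without thinning the shares were 99.0%, 94.1% and 98.6% in EDG9.5 and 91.7%, 79.5% and 76.1% in Reactivated, from cells of different depth. Neat1 was seen in 9.79%, 16.5% and 32.0% of thinned EDG9.5 cells and in 0%, 0.660% and 0.613% of thinned Reactivated cells. The epiblast value is 0 of 205 cells, which allows up to 1.46% of cells with a Neat1 UMI at 1000 UMIs per cell and sets no limit at full depth. Unthinned, the Neat1 shares were 30.8%, 36.0% and 68.1% against 5.85%, 10.6% and 16.6%. The thinned Reactivated values rest on single UMIs in very few cells. Thinned Gas5 was seen in 45.2%, 50.2% and 40% of EDG9.5 cells and in 32.7%, 25.1% and 24.5% of Reactivated cells. Malat1 was spread over many cells: the 10% of EDG9.5 cells with the most held 26.0%, 30.5% and 29.4% of its UMIs.

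Other genes of these pathways were read from lists. Of 19 other noncoding snoRNA hosts, 13 were rows in the files. From EDG9.5 to Reactivated, 12 of the 12 measured were lower in endoderm, 4 of them at least 2-fold, where 10.4% of all genes were, with a median log2 ratio of -0.87 against -0.16 over all genes. In trophoblast 8 of 11 were higher, 2 at least 2-fold, where 9.85% of all genes were, with a median of 0.28 against -0.08. In epiblast 5 were higher and 7 lower. With TMM factors the counts higher were 2 of 12 in endoderm and 9 of 12 in epiblast, so the epiblast majority turned. Zfas1, the most abundant of them, stood at 563, 571 and 629 CPM in EDG9.5 epiblast, endoderm and trophoblast and at 522, 264 and 674 CPM in Reactivated, and Snhg5 at 165, 272 and 138 CPM and then 306, 231 and 383 CPM. Snhg15 stood at 125, 95.4 and 69.8 CPM and then 148, 71.8 and 148 CPM. Endoderm was thus the lineage with the lowest median ratio of these hosts, with library totals and with TMM factors (-0.61).

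Genes of the proteins that package snoRNAs were mostly higher while the hosts were split. Of 12 snoRNP proteins and assembly factors, 11, 10 and 11 were higher in Reactivated than in EDG9.5 in epiblast, endoderm and trophoblast, with medians of 0.99, 0.19 and 1.34 against -0.23, -0.16 and -0.08 over all genes. Of these, 5, 2 and 8 were at least 2-fold higher, where 7.3%, 5.54% and 9.85% of all genes were, and 0, 1 and 1 at least 2-fold lower, where 16.4%, 10.4% and 11.4% were. Nop10, a core protein of H/ACA snoRNPs, stood at 212, 291 and 257 CPM in EDG9.5 and 791, 813 and 1027 CPM in Reactivated. Nop58, a core protein of C/D snoRNPs, stood at 709, 582 and 342 CPM and then 1035, 612 and 749.9 CPM. Dkc1, the pseudouridine synthase, was an exception, at 1555 and 894 CPM in EDG9.5 epiblast and trophoblast and 1039 and 401 CPM in Reactivated. In endoderm the exception past 2-fold was Nop56, another core protein of C/D snoRNPs, at 253 CPM and then 117 CPM. Of the 13 protein-coding snoRNA hosts outside the ribosomal proteins, 9, 7 and 9 were higher in Reactivated, with medians of 0.36, 0.10 and 0.65. At least 2-fold higher were 3, 1 and 4, and at least 2-fold lower 1, 2 and 2. The medians and shares over all genes are those given above. The nucleolar protein Ncl stood at 1264, 1581 and 788 CPM and then 3055, 2379 and 2438 CPM. The elongation factor Eef1b2 stood at 1763, 3056 and 2868 CPM and then 2602, 2162 and 3005 CPM. Rack1 was lower in all 3 lineages, at 1845, 2605 and 2477 CPM and then 1587, 1462 and 1732 CPM.

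TOP genes outside the ribosomal proteins stood higher in EDG9.5 than in EDG7.5, in 16, 14 and 16 of 16 genes in epiblast, endoderm and trophoblast, with medians of 0.28, 0.32 and 0.58 against -0.02 over all genes in each lineage, and none at least 2-fold. Tpt1 (translationally controlled tumour protein) stood at 1469.7, 1896 and 2343 CPM in EDG7.5 and 1831, 2956 and 3553 CPM in EDG9.5, the elongation factor Eef1b2 at 1423, 2281 and 1800.1 CPM and then 1763, 3056 and 2868 CPM. The nucleolar protein Npm1 stood at 2498, 2801 and 1432 CPM and then 3123, 3362 and 2217 CPM. From EDG9.5 to Reactivated the list was mixed, with 12, 7 and 10 of 16 genes higher, or 13, 11 and 10 with TMM factors.

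Of 16 nonsense-mediated decay factors, 12 and 13 were lower from EDG9.5 to Reactivated in epiblast and endoderm, with medians of -0.33 and -0.47 against -0.23 and -0.16 over all genes, and trophoblast split 8 to 8. The epiblast median was thus near that of all genes. With TMM factors epiblast also split 8 to 8, and endoderm had 12 lower. The exon junction genes among them, the most abundant, did not share this: Rbm8a stood at 207, 183 and 139.6 CPM in EDG9.5 and 404, 227 and 317 CPM in Reactivated. Eif4a3 stood at 182, 149 and 114 CPM and then 306, 231 and 275 CPM, and Magoh at 109.7, 113 and 89.6 CPM and then 183, 179 and 204 CPM. None of the 3 was lower.

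Genes of paraspeckle proteins mostly stood higher where Neat1 was lower, while those of nuclear speckle proteins, the bodies that Malat1 occupies, differed by lineage. Of 13 paraspeckle proteins, 11, 9 and 11 were higher in Reactivated than in EDG9.5 in epiblast, endoderm and trophoblast, with medians of 0.50, 0.13 and 0.54 against -0.23, -0.16 and -0.08 over all genes. Of these 13, 3, 0 and 4 were at least 2-fold higher, where 7.3%, 5.54% and 9.85% of all genes were. Another 1, 1 and 2 were at least 2-fold lower, where 16.4%, 10.4% and 11.4% were. Tardbp stood at 371, 339 and 197 CPM in EDG9.5 and 542, 419.9 and 411 CPM in Reactivated, and Hnrnpk at 597, 508 and 412 CPM and then 638, 557 and 512 CPM. Of 11 nuclear speckle proteins, 6, 3 and 4 were higher and 5, 8 and 7 lower, with medians of 0.07, -0.28 and -0.28. Those over all genes were again -0.23, -0.16 and -0.08. At least 2-fold higher were 1, 0 and 3, where 7.3%, 5.54% and 9.85% of all genes were. At least 2-fold lower were 4, 2 and 0, where 16.4%, 10.4% and 11.4% were. Most were thus lower in endoderm and trophoblast, but in trophoblast the only changes past 2-fold were higher. With TMM factors endoderm had 6 of 11 higher and a median of 0.09. The splicing coactivator Srrm1 stood at 1239.6, 847 and 463 CPM and then 529.6, 432 and 378 CPM, Rbm25 at 643, 478 and 426 CPM and then 678, 392 and 322 CPM, and Srsf6 at 419.7, 442 and 367 CPM and then 546, 427 and 389 CPM. From Reactivated to E5.5 paraspeckle proteins were higher in 12, 12 and 13 of 13 and speckle proteins in 10, 10 and 11 of 11. The medians were 0.42, 0.39 and 0.75 for paraspeckle and 0.50, 0.27 and 0.80 for speckle proteins, against 0.07, 0.04 and 0.10 over all genes. Most changes were under 2-fold. At least 2-fold higher were 1, 0 and 4 paraspeckle and 1, 0 and 2 speckle genes, where 3.1%, 3.12% and 5.33% of all genes were. Malat1 had ratios of 0.943 (0.884 to 1.01), 1.36 (1.26 to 1.46) and 0.820 (0.751 to 0.897) in the same comparison, and Neat1 was lower in endoderm and trophoblast as given above.

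Other nuclear long noncoding RNAs were fewer in counts. Of 13 listed, 7, 10 and 7 were measured from EDG9.5 to Reactivated, and 5, 8 and 5 of these were lower, with medians of -0.93, -0.84 and -0.10 against -0.23, -0.16 and -0.08 over all genes. Xist, which coats the inactive X chromosome, stood at 17.9, 749.9 and 254 CPM in EDG9.5 epiblast, endoderm and trophoblast, 3.51, 51.4 and 46.7 CPM in Reactivated and 112, 98.8 and 50.8 CPM in E5.5. Meg3, an imprinted RNA, stood at 196, 238 and 2.45 CPM in EDG9.5, 137, 114 and 0.502 CPM in Reactivated and 333, 403 and 121 CPM in E5.5, and Rian, from the same imprinted cluster, at 22.7, 41.2 and 0.222 CPM, then 36.7, 43.7 and 1.51 CPM, then 109, 169 and 61.7 CPM. Unlike Malat1 and Neat1, Meg3 and Rian were higher in E5.5 than in EDG9.5 in all 3 lineages.

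Likeness was the Pearson correlation of log2(CPM + 10) over the 12 sums, among 3825 genes with a mean of at least 50 CPM. Members, ribosomal protein genes, mitochondrially encoded genes and genes with Gm-number or Rik names had been left out. The hosts Zfas1 and Snhg15, which carry such names in the counts, were therefore not compared. By this rule the genes nearest Malat1 were Calcoco1 (0.957), Klf3 (0.957) and Pard3 (0.941). Klf3, a zinc-finger transcriptional repressor, stood at 119, 131 and 119 CPM in EDG9.5 and 40.2, 15.0 and 9.04 CPM in Reactivated. The genes nearest Neat1 were Pard3 (0.957), Klf10 (0.953) and Limk2 (0.950), of which Klf10, a TGF-beta-inducible factor, was highest in trophoblast in the first 3 libraries, at 72.7, 132 and 265 CPM in EDG9.5 and 28.1, 41.8 and 79.9 CPM in Reactivated. The host sum was nearest to Myc (0.832), Eif1 (0.805) and Eif1a (0.801). Myc, a regulator of ribosome production, stood at 122 CPM in EDG9.5 endoderm, 4.50 in Reactivated endoderm and 8.75 in E5.5 endoderm. In trophoblast it stood at 76.7, 126 and 113 CPM. Epiblast differed, with Myc higher in both later libraries than in EDG9.5 and the host sum lower. There Myc stood at 55.2, 125 and 70.1 CPM and the host sum at 1509.5, 1263 and 1109 CPM. The 12 points share 4 libraries, and the highest of 3825 correlations is high by selection.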

How the data were processed

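The 4 deposited files hold raw counts as whole numbers for each gene and barcode, read here as UMI counts. Per the submitters' processing notes the authors used the tools STAR 2.7.1a, featureCounts 1.6.4, UMI-tools 1.0.1 and Subread, and the mm10 build. Annotation, strand setting and barcode rule were not given in the sources used here. Members, lists and comparisons were chosen with earlier results of these data known.

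Cells with at least 1000 UMIs, 500 genes and under 25% mitochondrially encoded UMIs were kept, Scrublet doublets removed and each library clustered alone (scanpy 1.11.5: 2000 variable genes, 30 components, 15 neighbours, Leiden resolution 1). A cluster was named when its best marker list led by 0.5 log2 with at least 3 markers at 20 CPM. UMIs were summed per lineage and library. CPM have exact Poisson intervals and ratios exact conditional binomial intervals, and log2 ratios add 10 CPM. Pairs needed 10 UMIs in the 2 sums. No test was made, as each stage has 1 library. The interval code was tested on simulated data. Ribosomal protein genes number 84 and mitochondrially encoded genes 28. Older names were matched through RefSeq (Zfas1 as 1500012F01Rik, Snhg15 as Gm11974, Rack1 as Gnb2l1). Named genes are the members, the 3 genes nearest each of 3 patterns and the 3 most abundant of each list, of which 1 is not reported here. Alternatives included TMM factors from edgeR 4.0.16 on the counts.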

Additional observations from a re-analysis of the deposited data

How the results depend on the processing

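Under 17 alternatives, 3 of them chosen after seeing the data (leaving out clusters with more markers of another list than of their own, leaving out clusters under 1% mitochondrially encoded UMIs, and adding the unnamed E5.5 cluster to trophoblast), all 153 values of the 9 log2 ratios past 2-fold kept their direction and 148 stayed past 2-fold. The 5 others were Gas5 in endoderm under TMM (-0.99) and Snhg6 in endoderm under TMM (-0.68), thinning (-0.70), means over cells (-0.99) and 50 added CPM (-0.91). TMM factors moved the median of all genes by 0.19 in epiblast and 0.18 in endoderm from EDG9.5 to Reactivated, and 6 pairs were then lower. For the gene lists TMM was added after seeing the data. Malat1 stayed between -2.43 and -3.64 and Neat1 between -1.52 and -4.27 there. The count of pairs higher in EDG9.5 than in EDG7.5 was 3 with cells thinned to 1000 UMIs, 2 with means over cells and 2 with 1 added CPM, by Neat1 and, when thinned, Snhg6 in epiblast. The count higher in Reactivated than in EDG9.5 was 1 when thinned (Snhg1 in trophoblast), 1 with 1 added CPM and 1 without the clusters holding other markers (Snhg12 in trophoblast). The count lower in E5.5 than in Reactivated was 1 when thinned, 1 with means over cells and 1 with 1 added CPM, each time Neat1 in trophoblast. No replicate can be left out, and depth limits Neat1 most, with 14 to 38 UMIs in a Reactivated lineage.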
